A study of Homo sapiens with 9 samples.

Results

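A set of 10 genes of the methionine cycle and of polyamine metabolism were followed in MV4-11 cells, a human acute myeloid leukaemia line, by 3′ mRNA sequencing. The members were MAT2A, MAT2B, AHCY and MTR of the methionine cycle, and AMD1, ODC1, SRM, SMS, SAT1 and OAZ1 of polyamine metabolism, which are 10 of the 26929 gene rows of the deposited normalised table. They were taken by symbol and were chosen by their measured levels in the control and treated libraries, with earlier results of these data known. Their differences from DMSO are given as a description, with an interval and without a p-value, and how many of them passed the threshold is given as a count only. Cells received DMSO (the vehicle), JPX-0700 or JPX-0750 for 24 h, with 3 libraries in each of these 3 groups. Both compounds are described in the series title as degraders of the STAT3 and STAT5 proteins. The labels used here give no dose. All groups share the same unmodified cell line and medium, so the cells model 1 leukaemia line and not patients' cells. Nothing in the labels ties a library to a separate culture, so the spread between libraries may be technical.

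The methionine cycle turns methionine into S-adenosylmethionine (SAM), the donor for methylation of DNA, RNA, histones and small molecules. MAT2A is the catalytic subunit of the SAM synthetase of most tissues outside the liver, and MAT2B is its regulatory subunit. After SAM has given up its methyl group, AHCY hydrolyses S-adenosylhomocysteine to homocysteine, and MTR, the cobalamin-dependent methionine synthase, methylates homocysteine back to methionine. AMD1 instead decarboxylates SAM, and SRM and SMS use the product to build spermidine and spermine from the putrescine that ODC1 makes. SAT1 acetylates spermidine and spermine for breakdown and export. OAZ1, an antizyme, binds ODC1 and delivers it to the proteasome. A known feature of MAT2A is that its transcript carries hairpins in the 3′ untranslated region (3′ UTR) that the RNA methyltransferase METTL16 binds, which ties the splicing and stability of the transcript to the SAM supply.

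Because the libraries were read from the 3′ ends of transcripts, the MAT2A 3′ UTR is the stretch in which its reads are expected to lie, and the METTL16-type sites in it are shown for that reason. A search of the GENCODE 29 transcripts (GRCh38) for TACAGAGAA or TACAGAAAA on the transcript strand found 6 matches in the 1508-base MAT2A 3′ UTR. Each is printed 5′ to 3′ as DNA of the plus strand, with the 9-letter match in capitals and 10 bases on either side.
Site 1 (chr2:85543802-85543830): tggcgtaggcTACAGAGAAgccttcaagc
Site 2 (chr2:85544589-85544617): tgtgatgtcaTACAGAGAAgtcacagggc
Site 3 (chr2:85544774-85544802): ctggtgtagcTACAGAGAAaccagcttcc
Site 4 (chr2:85544889-85544917): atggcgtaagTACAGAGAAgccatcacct
Site 5 (chr2:85545004-85545032): caaggtgtccTACAGAAAAaccttgggtt
Site 6 (chr2:85545112-85545140): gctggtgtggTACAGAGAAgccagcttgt
Of 19068 annotated 3′ UTRs, 828 (4.34%) held at least 1 match, and 1 of them, that of MAT2A, held as many as 6. The other 9 members had no match. A match describes these letters and is not a measured binding site.

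**Figure D1:**
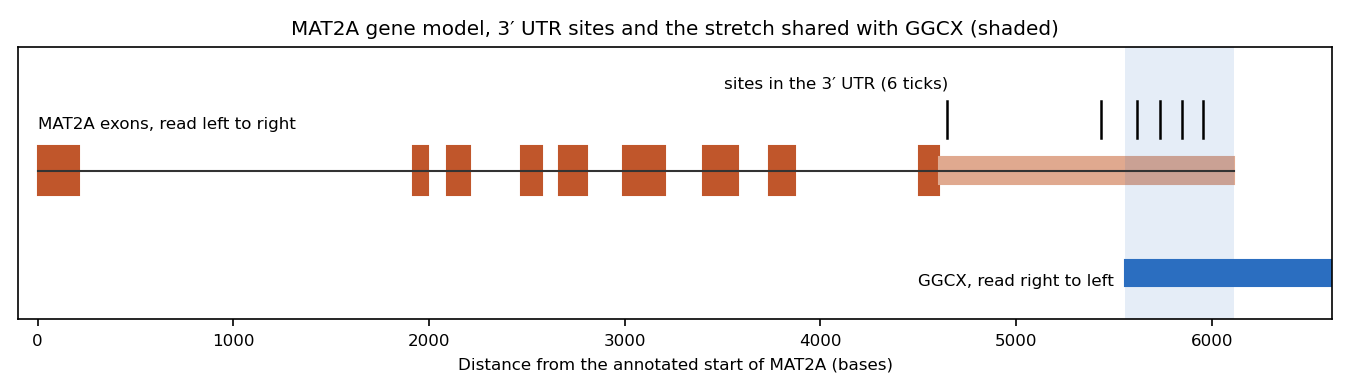
Gene model of MAT2A drawn to scale, with the distance from its annotated start in bases on the x axis. Dark boxes are exons, the pale box is the 3′ UTR in exon 9, black ticks are the 6 sites, and the shaded stretch of 558 bases is shared with GGCX on the opposite strand, where 4 of the 6 sites lie.

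The promoters of MAT2A and SAT1 are shown next because these were the members farthest above DMSO. Each is the stretch of 250 bases before the RefSeq start (GRCh38.p14), with the TATAAA match of MAT2A in capitals, 32 to 27 bases before the start.
MAT2A (chr2:85538918-85539167, plus strand): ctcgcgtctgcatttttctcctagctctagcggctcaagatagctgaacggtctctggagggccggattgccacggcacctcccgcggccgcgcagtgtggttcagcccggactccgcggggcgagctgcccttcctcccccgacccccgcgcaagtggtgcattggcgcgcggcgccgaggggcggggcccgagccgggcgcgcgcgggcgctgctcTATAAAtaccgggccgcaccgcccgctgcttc
SAT1 (chrX:23782923-23783172, plus strand): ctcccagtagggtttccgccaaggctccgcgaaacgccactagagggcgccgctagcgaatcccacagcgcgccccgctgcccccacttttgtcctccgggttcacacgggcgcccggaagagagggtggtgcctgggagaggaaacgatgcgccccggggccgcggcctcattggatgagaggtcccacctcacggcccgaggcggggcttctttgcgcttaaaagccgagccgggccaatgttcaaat
A set of 8 motifs was searched on both strands in windows of the 250 bases before each RefSeq start, for all 10 members. The windows of other genes were searched over the same 250 bases. The STAT site TTCNNNGAA was found in 0 members and in 6.57% of 35116 promoter windows. TATAAA was found in MAT2A alone among the members, against 10.7% of the windows. The GC box GGGCGG was found in at least 1 window of 9 members, all but SAT1, against 42.6% of single windows. Members had 1 to 3 windows each, so a count of members is not the same measure as a share of windows. The E-box CACGTG was found in SRM and in 1 of the 2 ODC1 windows, against 6.34%. The AP-1 site TGANTCA was found in 1 of the 3 AHCY windows, against 6.57%. The CRE TGACGTCA (1.65% of windows), the ATF4 element TGATGNAA (3.14%) and the heat shock element (0.441%) were found in 0 members. These matches are descriptions of the sequence.

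The libraries held between 726043 and 6305586 reads on genes, and the DMSO libraries were the deepest. Protein-coding genes held 94.1% to 94.6% of the reads with DMSO, 76.9% to 79.3% with JPX-0700 and 73.1% to 77% with JPX-0750. Small structured RNAs held 0.039% to 0.235%, 8.15% to 10.1% and 11.1% to 13.5% in the same order. The library with the fewest detected genes was DMSO replicate 1 (9816), JPX-0700 replicate 3 (10027) or JPX-0750 replicate 3 (10407) of its group, whereas the other 6 libraries detected 13068 to 14616. Of 11 myeloid markers, 9 reached a mean normalised count of at least 5, with LYZ the most abundant. CD14 was listed at 0 in every library. HOXA9 also fell short of that mean, averaging 0.54 in the controls, 2.78 under JPX-0700 and 0 under JPX-0750. The summed myeloid markers ranged from 6565 to 11440 with DMSO, 3258 to 5233 with JPX-0700 and 3023 to 5526 with JPX-0750. LYZ was the largest part of this sum, with group means of 5336, 1868 and 1557 in the same order, followed in DMSO by ITGB2 (1789, 228 and 945). Not every marker moved with the sum. MEIS1 averaged 162, 392 and 424, and SPI1 averaged 175, 203 and 105. Summed markers of T and NK, B and plasma, erythroid, and epithelial or fibroblast cells did not exceed 129.9 in any library. The part of these differences in the members' values was not tested. In such bulk libraries, fewer cells of a type and less RNA per cell cannot be told apart.

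Values below are normalised counts, the authors' read counts divided by a size factor per library, in the order replicate 1, 2 and 3. A difference is a log2 fold change of normalised counts + 1 from a limma fit to 12301 genes, with its standard error (SE) and 95% interval. A gene is called when its Benjamini-Hochberg adjusted p over all 12301 genes is under 0.05. All 10 members passed the filter of a mean of at least 5. With JPX-0700, 2 of the 10 members, MAT2A and SAT1, were called higher and 0 were called lower, beside 5.28% of all tested genes called higher and 0.496% called lower (5.77% in either direction). With JPX-0750 the same members were called higher and 0 lower, beside 3.9% and 0.0732% of all tested genes (3.98% in either direction). The split of all genes moved with the scaling. Where each library was scaled to the same total, JPX-0700 gave 3.07% higher and 2.3% lower, and JPX-0750 gave 2.47% higher and 0.463% lower. Under TMM scaling JPX-0700 gave 4.15% higher and 1% lower. These contrasts chose the members, so nothing is read from the counts. The median difference of the 10 members was 0.62 with JPX-0700 and 0.28 with JPX-0750, against 0.14 and 0.26 for all tested genes. Both comparisons use the same 3 DMSO libraries.

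**Figure D2:**
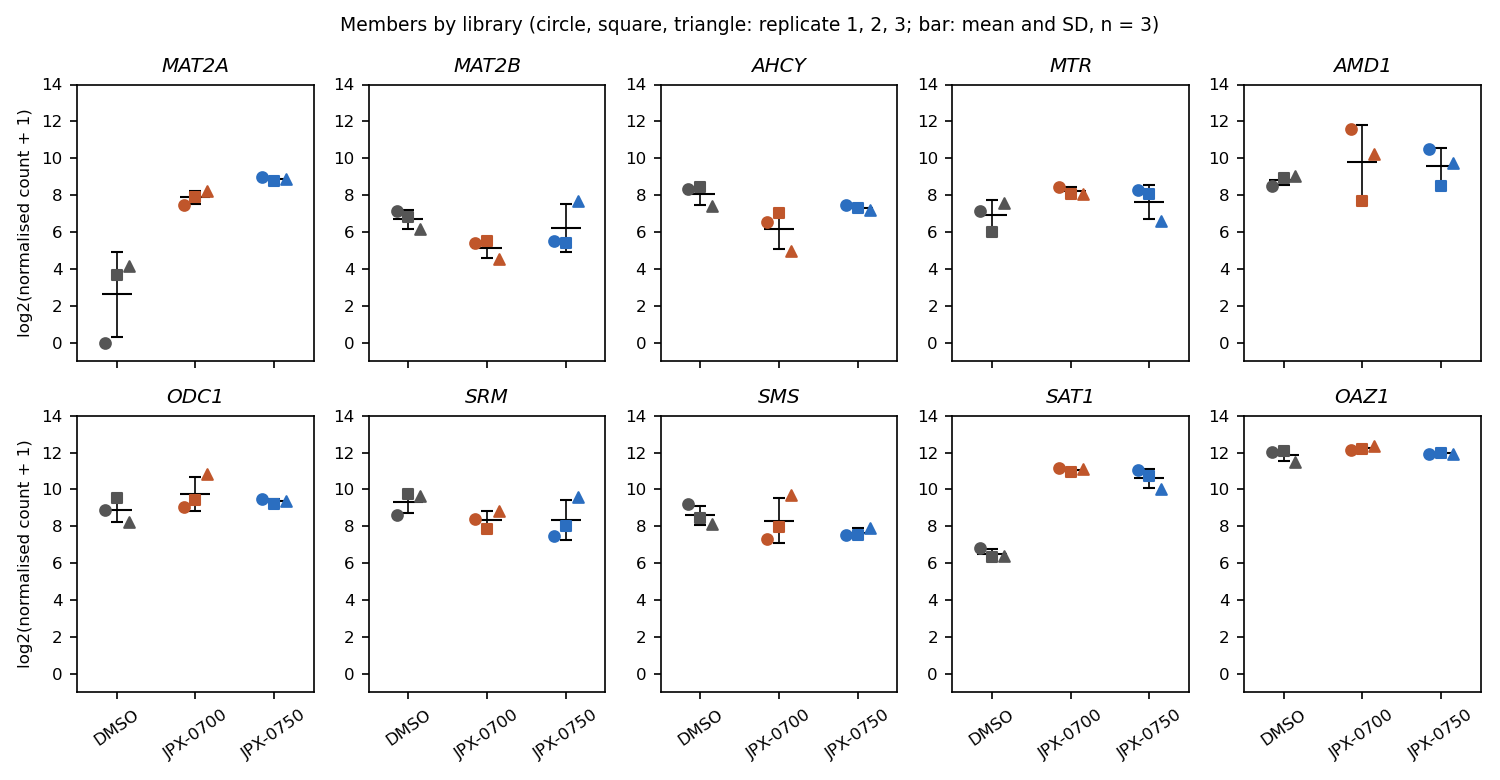
Each panel plots 1 member's log2(normalised count + 1) in the 9 libraries, with circles, squares and triangles for replicates 1, 2 and 3 and bars for the mean and SD (n = 3). MAT2A and SAT1 lie above every DMSO library in both treated groups, while AMD1, ODC1 and SRM overlap with DMSO.

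MAT2A (chr2:85539168-85545281, plus strand) was near the detection limit in the controls and readily detected after either compound. Its normalised counts were 0, 11.9 and 17.2 with DMSO, from 63 reads in all. With JPX-0700 they were 179.7, 242 and 295, from 210 reads. With JPX-0750 they were 503, 441 and 475, from 529 reads. Every treated library lay above every DMSO library, and every JPX-0750 library lay above every JPX-0700 library. On the log2 scale the fold change was 5.25 ± 0.93 (SE; 95% interval 3.29 to 7.22) with JPX-0700 and 6.26 ± 0.93 (4.30 to 8.23) with JPX-0750. The 0 in DMSO replicate 1 allows a value of up to 2.69 (3 reads), and that library sets much of the size. Without it the log2 fold change was 3.94 with JPX-0700 and 4.95 with JPX-0750. From reads summed over each group, the ratio to DMSO was 22 (95% interval 16.5 to 29.6) with JPX-0700 and 42.1 (32.4 to 55.6) with JPX-0750, intervals that cover counting error only.

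The last 558 bases of MAT2A lie in exon 9, in the 3′ UTR, and overlap GGCX, the vitamin K-dependent gamma-glutamyl carboxylase, on the opposite strand (85544723 to 85561547 on chromosome 2 in GENCODE 29). Sites 3 to 6 above are within this shared stretch. GGCX had normalised counts of 53.0, 60.6 and 57.6 in DMSO, 189, 153 and 269.6 under JPX-0700 and 438, 318 and 263 under JPX-0750. All treated libraries of GGCX therefore also lay above DMSO, as they did for 16.5% of tested genes with JPX-0700 and 19.7% with JPX-0750. Its log2 fold change was 1.78 ± 0.58 with JPX-0700 (limma adjusted p = 0.0849) and 2.52 ± 0.58 with JPX-0750 (adjusted p = 0.0155). No source used here says whether the counting used strand. Reads of MAT2A and GGCX in the shared stretch therefore cannot be told apart, and the part of either gene in the other's count was not tested. MAT2A was the only member with an opposite-strand gene over its last 300 bases.

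MAT2B (chr5:163503064-163519354, plus strand), the regulatory subunit, did not follow the catalytic one. DMSO libraries held 138, 111 and 70.0 normalised counts. JPX-0700 libraries held 41.5, 44.7 and 22.2, all below DMSO, from 29 reads in all. JPX-0750 libraries held 44.5, 40.9 and 206.6, so that replicate 3 exceeded every DMSO library and the groups overlapped. For MAT2B the log2 fold change was -1.54 ± 0.87 (95% interval -3.38 to 0.30) with JPX-0700 and -0.49 ± 0.87 (-2.33 to 1.34) with JPX-0750.

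AHCY (chr20:34231981-34311836, minus strand), which clears S-adenosylhomocysteine, was also lower with JPX-0700. Its normalised counts were 325, 343 and 168 with DMSO and 92.2, 130.4 and 30.6 with JPX-0700, without overlap. With JPX-0750 they were 178, 155 and 147, with replicate 1 above the lowest DMSO library. For AHCY the log2 fold change was -1.87 ± 0.66 (95% interval -3.26 to -0.48) and -0.73 ± 0.66 (-2.13 to 0.66), respectively. With JPX-0700 it was -1.27 without replicate 3 and -2.59 where each library was scaled to the same total. Taken relative to the median of all genes, it was -2.02 as deposited and -2.10 after that scaling.

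MTR (chr1:236795281-236903981, plus strand), which closes the cycle, lay on the other side of DMSO. The controls held 141, 63.3 and 193.8 normalised counts and the JPX-0700 libraries 350.2, 268 and 269.6, all above them. JPX-0750 gave 311.5, 264 and 94.96, with replicate 3 inside the control range. For MTR the log2 fold change was 1.28 ± 0.63 (95% interval -0.04 to 2.605) with JPX-0700 and 0.72 ± 0.63 (-0.60 to 2.04) with JPX-0750.

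AMD1 (chr6:110814617-110895713, plus strand), the SAM decarboxylase that links the cycle to polyamines, varied widely between treated libraries. It held 366, 492 and 529 normalised counts with DMSO. Values of 3069, 205 and 1184 with JPX-0700, and of 1434, 355 and 846 with JPX-0750, placed replicate 2 of each treated group below the DMSO libraries and the other replicates above them. Its highest JPX-0700 library was 14.97 times the lowest, against 1.44 times with DMSO. On the log2 scale the fold change was 0.99 ± 0.74 (95% interval -0.56 to 2.54) with JPX-0700 and 0.72 ± 0.74 (-0.82 to 2.27) with JPX-0750. With 1 JPX-0700 library left out, the first ranged from 0.11 (without replicate 1) to 2.06 (without replicate 2).

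ODC1 (chr2:10439968-10448327, minus strand), which makes putrescine, overlapped with DMSO under both compounds. Normalised counts were 467, 737 and 301.5 in DMSO, 535, 682 and 1801 under JPX-0700 and 705, 596 and 675 under JPX-0750. The JPX-0700 range was widened by replicate 3 alone. For ODC1 the log2 fold change was 0.89 ± 0.51 (95% interval -0.19 to 1.96) and 0.48 ± 0.51 (-0.59 to 1.56), and the second was -0.06 where each library was scaled to the same total. SNORA80B, a small nucleolar RNA inside the ODC1 span on the same strand, had 0, 0 and 2.69 normalised counts with DMSO, 235, 145 and 419.6 (JPX-0700) and 298, 236.5 and 183 (JPX-0750), and its part in the ODC1 counts was not tested.

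SRM (chr1:11054589-11060018, minus strand), spermidine synthase, held 389, 872 and 792 normalised counts with DMSO. JPX-0700 gave 332, 231 and 450.2, and JPX-0750 gave 175, 259 and 758. The groups overlapped, with DMSO replicate 1 the lowest control and replicate 3 of each compound the highest of its group. For SRM the log2 fold change was -0.98 ± 0.57 (95% interval -2.19 to 0.22) with JPX-0700 and -0.99 ± 0.57 (-2.20 to 0.22) with JPX-0750. Those 3 libraries are also the ones with the fewest detected genes. With them left out, the differences were -1.58 and -1.96.

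SMS (chrX:21940709-21994837, plus strand), spermine synthase, showed no pattern common to both compounds. It held 581, 347 and 282 normalised counts in DMSO, 157, 246 and 828 under JPX-0700 and 185, 182 and 243 under JPX-0750. The JPX-0700 libraries spanned the control range, and the JPX-0750 libraries all lay below it. For SMS the log2 fold change was -0.27 ± 0.60 (95% interval -1.54 to 0.99) with JPX-0700, and its sign changed without DMSO replicate 1 (0.02) or JPX-0700 replicate 1 (0.23). With JPX-0750 it was -0.93 ± 0.60 (-2.20 to 0.34).

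SAT1 (chrX:23783173-23786210, plus strand), the acetyltransferase of polyamine breakdown, was far above its controls in every treated library. The controls held 110.5, 80.1 and 84.0 normalised counts, from 488 reads. The treated libraries held 2249, 1986 and 2220.0 with JPX-0700, from 1820 reads, and 2088, 1710.0 and 1033 with JPX-0750, from 1606 reads. No treated library came near the control range. On the log2 scale the fold change was 4.55 ± 0.43 (95% interval 3.64 to 5.46), a 23.5-fold difference, with JPX-0700 and 4.08 ± 0.43 (3.17 to 4.99), or 16.9-fold, with JPX-0750. Summed reads gave a ratio of 24.6 (22.3 to 27.3) and 16.5 (14.9 to 18.3) by counting error only. With the fewest-gene library of each group left out the log2 fold change was 4.67 and 4.51.

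OAZ1 (chr19:2269486-2273488, plus strand), the antizyme, had the smallest difference of the members with JPX-0750. It held 4185, 4362 and 2897 normalised counts in DMSO, 4539, 4692 and 5235 under JPX-0700 and 3858, 4097 and 3903 under JPX-0750. The JPX-0700 libraries were all above DMSO and the JPX-0750 libraries lay within the control range. For OAZ1 the log2 fold change was 0.36 ± 0.37 (95% interval -0.41 to 1.13) with JPX-0700 and 0.07 ± 0.37 (-0.70 to 0.84) with JPX-0750. Scaling each library to the same total turned these to -0.37 and -0.46, and TMM scaling turned the second to -0.19. Those scalings moved the median of all genes from 0.14 to -0.50 and -0.13 with JPX-0700, and from 0.26 to -0.23 and 0.01 with JPX-0750.

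In all, the libraries of 4 members were all above DMSO with JPX-0700 (MAT2A, MTR, SAT1 and OAZ1), beside 16.5% of all tested genes, and those of 2 were all below (MAT2B and AHCY), beside 10.3%. With JPX-0750, 2 members were all above (MAT2A and SAT1), beside 19.7% of tested genes, and 1 was all below (SMS), beside 9.18%. The plot of differences from DMSO shows MAT2A and SAT1 apart from the other 8 members, whose point estimates lay between -1.87 and 1.28.

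**Figure D3:**
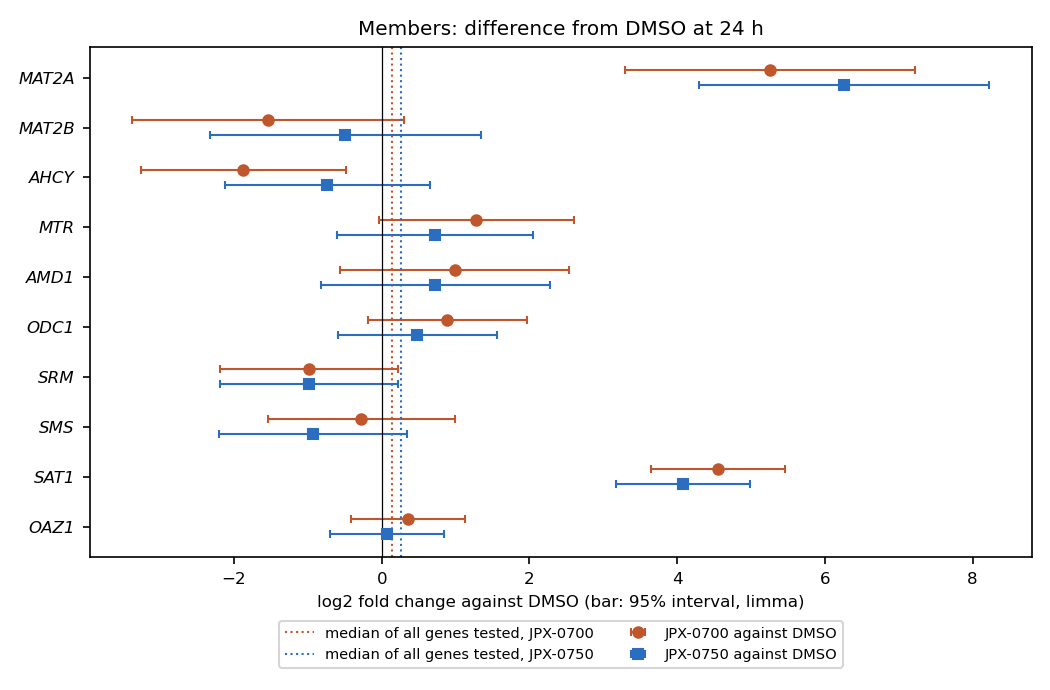
Points give the log2 fold change against DMSO at 24 h on the x axis for each member, circles for JPX-0700 and squares for JPX-0750, with 95% intervals from the limma fit. Dotted lines mark the median of all tested genes (0.14 and 0.26), and the intervals of MAT2A and SAT1 lie wholly above both.

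JPX-0750 was then set directly against JPX-0700, at the same time and with doses not given in the labels used here. None of the 10 members was called (limma adjusted p between 0.848 and 0.9998), and 0 members had an unadjusted p under 0.05. Over all tested genes 0 were called (0.0%), 395 had an unadjusted p under 0.05, and voom on the recovered reads also called 0. MAT2A was 1.01 ± 0.93 higher on the log2 scale with JPX-0750 (95% interval -0.95 to 2.97), MAT2B was 1.04 ± 0.87 higher (-0.79 to 2.88) and AHCY 1.14 ± 0.66 higher (-0.26 to 2.53). SAT1 differed by -0.48 ± 0.43 (-1.39 to 0.44) and OAZ1 by -0.28 ± 0.37 (-1.05 to 0.49). These intervals are wide and do not show that the compounds acted alike. The JPX-0750 libraries were all above the JPX-0700 libraries for MAT2A and AHCY, beside 4.72% of tested genes, and all below for OAZ1, beside 3.63%; genes without overlap in either direction were 8.35% of those tested. The treated groups overlapped for the other members, and the differences of MTR, AMD1, ODC1, SRM and SMS ran from -0.65 to -0.002.

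Ratios of a pair of members within a library depend on the scaling between libraries only through the pseudocount of 1, and were compared across groups as a description. The log2 ratio of MAT2A to MAT2B was -7.12, -3.12 and -1.96 in DMSO, 2.09, 2.41 and 3.67 under JPX-0700 and 3.47, 3.40 and 1.197 under JPX-0750. The catalytic to regulatory subunit ratio was thus higher in each treated library than in each control. SAT1 over ODC1, breakdown over first synthesis step, was -2.07, -3.18 and -1.83 in DMSO, 2.07, 1.54 and 0.30 under JPX-0700 and 1.57, 1.52 and 0.61 under JPX-0750, again without overlap. MAT2A over AHCY averaged -5.43 ± 2.64 (SD, n = 3), 1.69 ± 1.33 and 1.56 ± 0.11 in the same order of groups. With a pseudocount of 5 the DMSO mean of MAT2A over MAT2B moved from -4.07 to -3.12, and that of MAT2A over AHCY to -4.46. ODC1 over its inhibitor OAZ1 averaged -2.995 ± 0.38, -2.47 ± 0.82 and -2.59 ± 0.17, with overlapping groups. The first 3 ratios each contain MAT2A or SAT1, the members that stood apart.

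**Figure D4:**
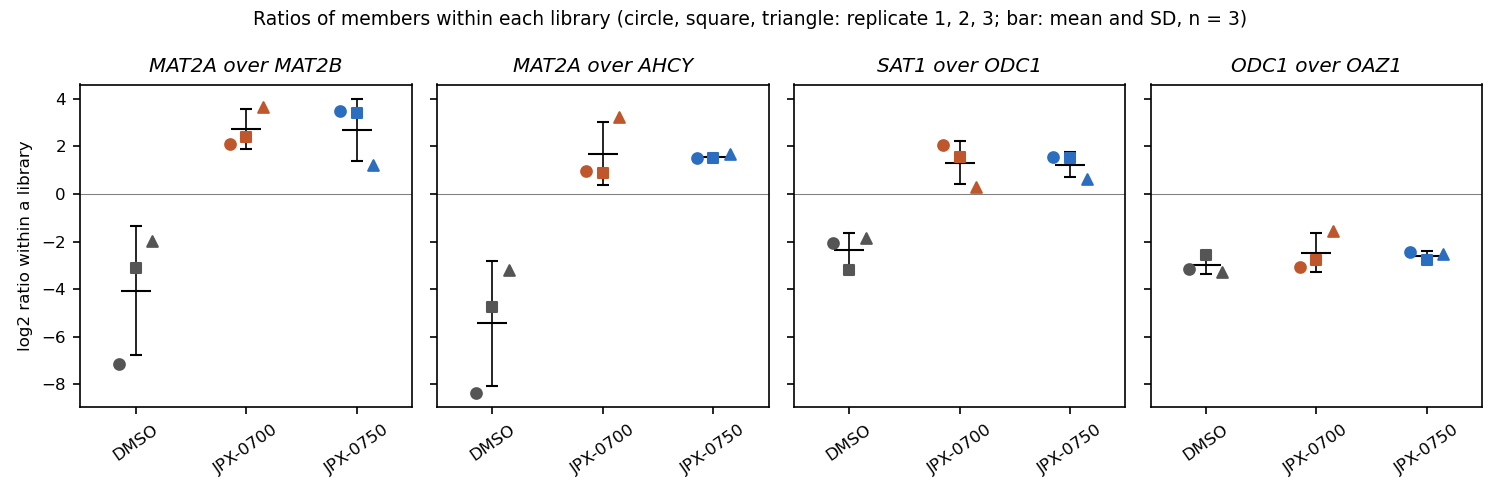
Log2 ratios of 2 members within each library (y axis), with circles, squares and triangles for replicates 1, 2 and 3 and bars for the mean and SD (n = 3). The first 3 ratios lie below 0 in every DMSO library and above 0 in every treated library, while ODC1 over OAZ1 stays between -3.26 and -1.54.

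The genes whose pattern over the 9 libraries was most like that of MAT2A were sought among 7240 genes with a mean of at least 50, by the root mean square difference of centred log2 values. The nearest were ZNF528-AS1 (0.60), PANX2 (0.62), RP9P (0.64), DDIT3 (0.65) and ANKH (0.71). ZNF528-AS1 is an antisense RNA, PANX2 a pannexin channel protein, RP9P a pseudogene, DDIT3 the stress-induced transcription factor CHOP and ANKH a membrane transport protein. All 5 were listed at 0 in DMSO replicate 1, as was MAT2A, so this library weighs in the likeness. DDIT3 held 0, 10.4 and 16.7 normalised counts in DMSO, 479, 611 and 411 under JPX-0700 and 561, 623 and 296.5 under JPX-0750. SAT1 was the member nearest to MAT2A, at rank 203 (1.53), and AHCY was the farthest, at rank 6033 (3.61).

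Genes of the same pathways that are no members were taken from 7 lists of 99 genes, of which 85 passed the filter. With JPX-0700, 1 of the 85 was called higher and 0 were called lower, beside 5.28% and 0.496% of all tested genes, and 17 had an unadjusted p under 0.05, beside 19.6% of all tested genes. With JPX-0750, limma called 0 in either direction, 7 had an unadjusted p under 0.05, beside 14.2%, and voom on the recovered reads called 2, beside 7.68%. The called gene was SLC3A2, the heavy chain that carries the methionine and leucine transporter SLC7A5 to the membrane. SLC3A2 held 191, 382 and 205 normalised counts in DMSO, 853, 507 and 1854 under JPX-0700 and 733, 559 and 928 under JPX-0750. All treated libraries of SLC3A2 were above the controls, which also held for 16.5% of tested genes with JPX-0700 and 19.7% with JPX-0750. Its log2 fold change was 1.91 ± 0.52 with JPX-0700 (limma adjusted p = 0.0373) and 1.55 ± 0.52 with JPX-0750 (adjusted p = 0.128). The first call was kept in 6 of 17 alternatives, with log2 fold changes from 1.18 to 2.35 and adjusted p from 0.0132 to 0.166. It was lost at an unchanged 1.91 without a filter on low values or with any 1 JPX-0750 library left out.

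By list, the median difference with JPX-0700 and JPX-0750 was -0.95 and 0.50 over 10 other methionine cycle genes, -1.04 and -1.05 over 5 methionine salvage genes, and -0.25 and 0.40 over 15 other polyamine genes. It was -0.69 and -0.42 over 11 genes of transsulfuration and glutathione synthesis, -0.27 and -0.17 over 33 SAM-dependent methyltransferases, -1.48 and -0.97 over 7 regulators of the MAT2A transcript, and 1.24 and 1.01 over 4 methionine carriers. All 85 genes together had medians of -0.48 and -0.06, against 0.14 and 0.26 for all tested genes. The 6 genes MAT1A, BHMT2, GNMT, EHMT2, NNMT and YTHDC1 were listed at 0 in every library. MAT1A, the liver form of the SAM synthetase, is among them.

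**Figure D5:**
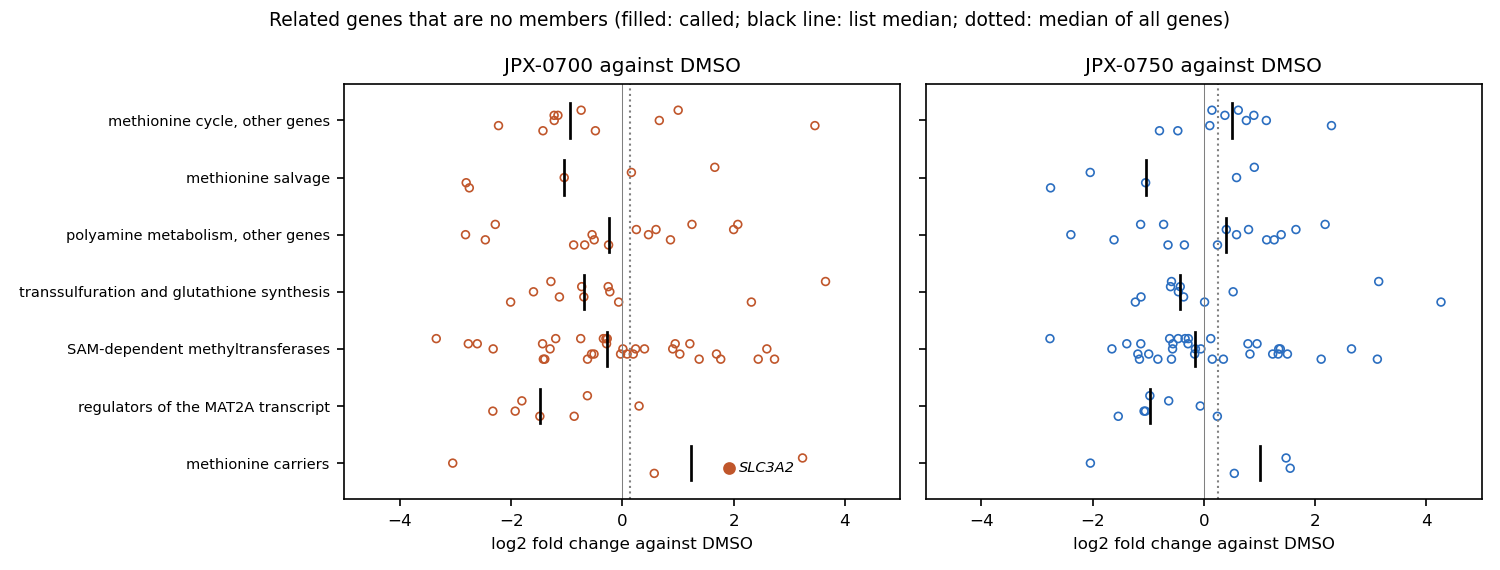
Each circle is a gene of 1 of the 7 lists, placed by its log2 fold change against DMSO (x axis), with JPX-0700 on the left and JPX-0750 on the right. Black lines are list medians, dotted lines are medians of all tested genes, and SLC3A2 with JPX-0700 is the only filled, called gene.

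Some genes outside the naming rule were picked afterwards for their role. METTL16, which reads the MAT2A hairpins, held 117, 122 and 148 normalised counts in DMSO, 147.5, 160.3 and 13.9 under JPX-0700 and 130.1, 145.5 and 185 under JPX-0750. JPX-0700 replicate 3, the library of its group with the fewest detected genes (10027), was far below the other 8 libraries. Neither difference of METTL16 from DMSO was called (-0.87 and 0.24). NUDT21, a subunit of the cleavage factor that selects polyadenylation sites, held 296, 307 and 207 in DMSO, 106, 93.2 and 13.9 under JPX-0700 and 127, 77.3 and 213 under JPX-0750. It was below DMSO in all JPX-0700 libraries, from 53 reads in all, without being called (-2.33, limma adjusted p = 0.0950). It was called lower where each library was scaled to the same total (-3.04, limma adjusted p = 0.0464). That scaling moved the median of all genes from 0.14 to -0.50 and the share called lower from 0.496% to 2.3%. AZIN1, the antizyme inhibitor that frees ODC1, held 570.2, 643 and 438 in DMSO, 765, 1111 and 667 under JPX-0700 and 1095, 1023 and 763 under JPX-0750. Its treated libraries were all above DMSO, with differences of 0.61 and 0.80 that were not called. Of the 85 related genes, 12 were all above DMSO with JPX-0700 and 16 all below, beside 16.5% and 10.3% of all tested genes. With JPX-0750, 12 were all above and 15 all below, beside 19.7% and 9.18%.

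With the fewest-gene library of each group left out, 11 of the 85 related genes were called for each compound, 9 higher and 2 lower, beside 17.5% and 17.8% of all tested genes called higher and 3.6% and 3.05% called lower (21.1% and 20.8% in either direction). CTH, the cystathionine gamma-lyase of transsulfuration, was higher by 3.48 with JPX-0700 and 4.04 with JPX-0750 in that fit. The arginine methyltransferases PRMT2 (2.93 and 3.55), PRMT5 (3.90 and 3.98) and PRMT9 (3.57 and 3.89), the histone methyltransferase EZH2 (1.57 and 1.48), the m6A writer subunit METTL14 (1.71 and 1.79), the cap methyltransferase RNMT (1.19 and 1.16) and AZIN2 (3.11 and 3.27) were called higher with both. The persulfide dioxygenase ETHE1 was called lower with both (-2.09 and -1.93). CSAD (2.93) was called higher and SQRDL (-1.43) lower with JPX-0700, and METTL3 (2.87) higher and ALKBH5 (-1.43) lower with JPX-0750. These libraries were left out after the values had been seen, and none of these genes was called in the limma fit to all 9 libraries as described above. In other fits to all 9 libraries, EZH2 and PRMT2 were called higher with JPX-0700 with a pseudocount of 5 and by voom, EZH2 also at a mean of at least 50 and PRMT2 also with the replicate number as a block. Voom called CTH and PRMT9 higher with JPX-0750.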

How the data were processed

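RNA of MV4-11 cells was made into QuantSeq 3′ libraries and read as single reads, per the labels' protocols. Tools listed in the submitters' processing notes are STAR 2.4.2a, featureCounts 2.0.3, DESeq2, SAMtools 1.4 and FastQC 0.11.9, with the build GRCh38. The deposited values are normalised counts, that is, the authors' read counts divided by 1 factor per library, written with decimal commas. Dividing by the smallest step gave whole reads for 100% of values in every library (tolerance 1e-06). Python 3.11.15 prepared tables, and R 4.3.3 with limma 3.58.1 (trended variances, 6 residual degrees of freedom) was fitted to log2(normalised count + 1) of the 12301 genes whose mean over 9 libraries was 5 or more, in a group-means model, two-sided. The fit was also run on simulated counts. These did not copy the uneven gene detection or the shift in RNA classes of these libraries, so their outcome does not bear on those features. The planned edgeR test was not run, and limma's voom on recovered reads took its place.

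The members and lists were chosen with earlier results of these data known. By the naming rule, named genes were all members, called related genes (at most 6 per list) and the 5 genes most like MAT2A. Genes named outside this rule include related genes called only in other fits, those picked for their role and genes overlapping members. The older symbols CCBL1 and SQRDL stood for KYAT1 and SQOR. Replicates of no group agreed within sampling noise. Deviations from the group means of same-numbered libraries of the compounds correlated at 0.129, 0.171 and 0.19. Of different numbers, JPX-0700 replicate 2 with JPX-0750 replicate 1 gave 0.153, and JPX-0700 replicate 1 with JPX-0750 replicate 2 gave 0.0657. Replicate 3 of either compound with another number of the other gave -0.198 to -0.119. These values do not settle whether the numbers pair JPX-0700 with JPX-0750. DMSO with the same number of either compound gave -0.143 to -0.0436. Intervals use a 95% level. Promoters are from RefSeq (GRCh38.p14), and all 10 members matched. Alternatives were another pseudocount (5), other filters (none, mean of at least 50), total-sum and TMM scaling, a replicate block, and leaving out libraries.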

Additional observations from a re-analysis of the deposited data

How the results depend on the processing

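As a description, since these contrasts chose the members, log2 fold changes are given over 17 alternatives. For MAT2A they were 3.77 to 6.03 with JPX-0700 and 4.95 to 7.04 with JPX-0750. For SAT1 they were 3.83 to 4.69 and 3.54 to 4.51. In each alternative 2 or 3 of the 10 members passed the threshold. Of all tested genes, 3.17% to 21.1% passed with JPX-0700 and 2.06% to 20.8% with JPX-0750. With JPX-0700 the third member was AHCY (lower) under total-sum scaling and AMD1 (higher) without JPX-0700 replicate 2. With both compounds it was SRM (lower) without the fewest-gene libraries. The cause of the changes below was not tested. Over all genes, calls with JPX-0700 (710) ranged from 390 (without DMSO replicate 2) to 954 (without JPX-0700 replicate 3) with 1 library left out, and were 2601 (2158 higher, 443 lower) without the fewest-gene library of each group and 1299 with voom. With JPX-0750 (489 calls) leaving out 1 library gave 254 to 1096, leaving out the fewest-gene libraries 2559 and voom 945. Counts of related genes called are given beside the share of all tested genes called in the same fit. With JPX-0700 (1, beside 5.77%) they were 3 with pseudocount 5 (6.58%), 0 without a filter (3.24%) and 2 at a mean of at least 50 (10.5%). They were 3 with total-sum scaling (0 higher, 3 lower, beside 3.07% and 2.3%) and 0 with TMM (5.15%). They were 4 with voom (10.6%), 11 without the fewest-gene libraries (21.1%) and 0 to 2 with 1 library left out (3.17% to 7.76%). With JPX-0750 (0, beside 3.98%) they were 0 to 4 with 1 library left out (2.06% to 8.91%), 2 with voom (7.68%) and 11 without the fewest-gene libraries (20.8%). The last 2 alternatives were added after the data were seen.

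With the replicate number as a block, 2 related genes were called with JPX-0700, beside 5.64% of all tested genes. In JPX-0750 against JPX-0700, the block called 0 genes (427 with an unadjusted p under 0.05), and 0 when fitted to the treated libraries alone (212). Whether the replicate numbers pair these groups is not settled. The block changed no member's call.

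Signs turned for OAZ1 with JPX-0700 under total-sum scaling (-0.37), for ODC1 with JPX-0750 under total-sum scaling (-0.056), and for OAZ1 with JPX-0750 under total-sum (-0.46) or TMM scaling (-0.19). Between the compounds they turned for MAT2B (-0.013) and ODC1 (0.10) without the fewest-gene libraries, and SRM, at -0.002, became 0.00016 with pseudocount 5, 0.19 with total-sum scaling, 0.039 with TMM and 0.17 with voom. With 1 library left out, the difference from DMSO ranged from -0.97 to 0.23 for SMS with JPX-0700 and from -0.11 to 0.18 for OAZ1 with JPX-0750. Between the compounds it then ranged from -1.33 to 0.61 for AMD1, -0.75 to 0.12 for ODC1, -0.61 to 0.44 for SRM and -1.16 to 0.037 for SMS. The edgeR alternative was not run. Depth limits MAT2A with DMSO (63 reads) and MAT2B with JPX-0700 (29 reads) most.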
